A study of Triticum turgidum subsp. durum with 24 samples.

Results

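A group of 184 probe sets gave a clear signal in unstressed leaves of the durum wheat cultivar Cappelli, stayed near background on every Ofanto array, and lost at least 3 log2 units of signal in Cappelli under heat. A probe set (PS) is the set of short oligonucleotides with which the Affymetrix GeneChip Wheat Genome Array reports 1 transcript. The members were selected on measured values. A PS had to lie below the 60th percentile of its array on all 12 Ofanto arrays and above the 75th percentile on all 3 Cappelli control arrays, and its mean log2 signal had to be at least 3 lower in Cappelli under heat than in Cappelli control. Of 61178 PSs examined, 330 met the first pair of limits and are called Cappelli-only here, and 184 of these also met the limit on heat. The other 146 Cappelli-only PSs serve as a comparison.

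The 24 arrays held 3 samples for each of 8 groups. In Cappelli and in Ofanto these were plants under combined stress (CS, a soil water content of 12.5% and a day temperature of 40 °C), heat stress (HS, 28% and 40 °C), drought stress (DS, 12.5% and 19 °C) and control (28% and 19 °C). All plants, controls included, were grown in pots in a growth chamber and received a fungicide against powdery mildew. The study's methods describe flag leaves at booting, whereas the sample labels give a third-leaf stage, another RNA extraction and another labelling protocol. For Ofanto, control replicates 2 and 3 are control by title while their description text is that of a drought treatment. Nothing in the labels says how many plants make up a sample, so the spread behind each p-value is that among the arrays of a group and may be partly technical.

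A durum wheat PS can read low because the RNA is scarce or because the cultivar's sequence differs from the one the probes were designed on, and the array was designed largely from bread wheat. A low signal in Ofanto alone does not tell these apart, and which applies to the members was not tested. In plants, heat raises the RNAs of heat shock proteins and lowers many others, among them RNAs for parts of the ribosome. In whole leaves, fewer cells of a type and less RNA per cell cannot be told apart.

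Signals of annotated PSs were set beside the leaf and treatment labels. The 20 PSs annotated to photosynthesis averaged between 10.91 and 11.65 in log2 signal on the Cappelli CS arrays and between 10.99 and 11.09 on the Cappelli control arrays. That list includes 1 member, a match to plantacyanin, which is no photosynthesis protein. The 105 PSs annotated as heat shock proteins or chaperones averaged 12.14 to 12.48 in CS, 12.49 to 12.63 in HS, 8.85 to 9.07 in DS and 8.74 to 8.87 in control of Cappelli. The arrays labelled with heat had the high heat shock signals, but the annotated PSs are ones that the study had picked on these same arrays. Its tables include clusters described as raised under heat, so this is no independent check of the labels. For other tissues, 3 PSs had words for pollen or anther and averaged 8.02 to 9.31 in CS, 9.19 to 9.51 in HS, 9.98 to 10.25 in DS and 10.36 to 10.50 in control, and 2 had words for root and averaged 8.45 to 9.85 in CS, 7.85 to 8.10 in HS, 7.61 to 8.53 in DS and 8.72 to 9.41 in control. No PS was annotated to seed storage. The pollen and anther mean was lower in CS and HS than in control, but between CS and DS the median over its 3 PSs was 0.03, with 1 called lower and 0 higher. Whether cells of these tissues had a part in the result was not tested.

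The values that chose the members are given first, as a description. The median member had a log2 signal of 7.67 in CS, 6.54 in HS, 9.20 in DS and 10.33 in control of Cappelli. In Ofanto the corresponding medians were 3.47, 3.70, 4.17 and 3.91. The 60th percentile lay between 6.89 and 7.12 on the Cappelli arrays, so the median member was under that level in HS and above it in the other Cappelli groups. Together the members made up 0.0361% to 0.17% of an array's summed signal in CS, 0.036% to 0.0469% in HS, 0.189% to 0.322% in DS and 0.422% to 0.655% in control of Cappelli. They were a minor share of the leaf signal throughout.

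**Figure D1:**
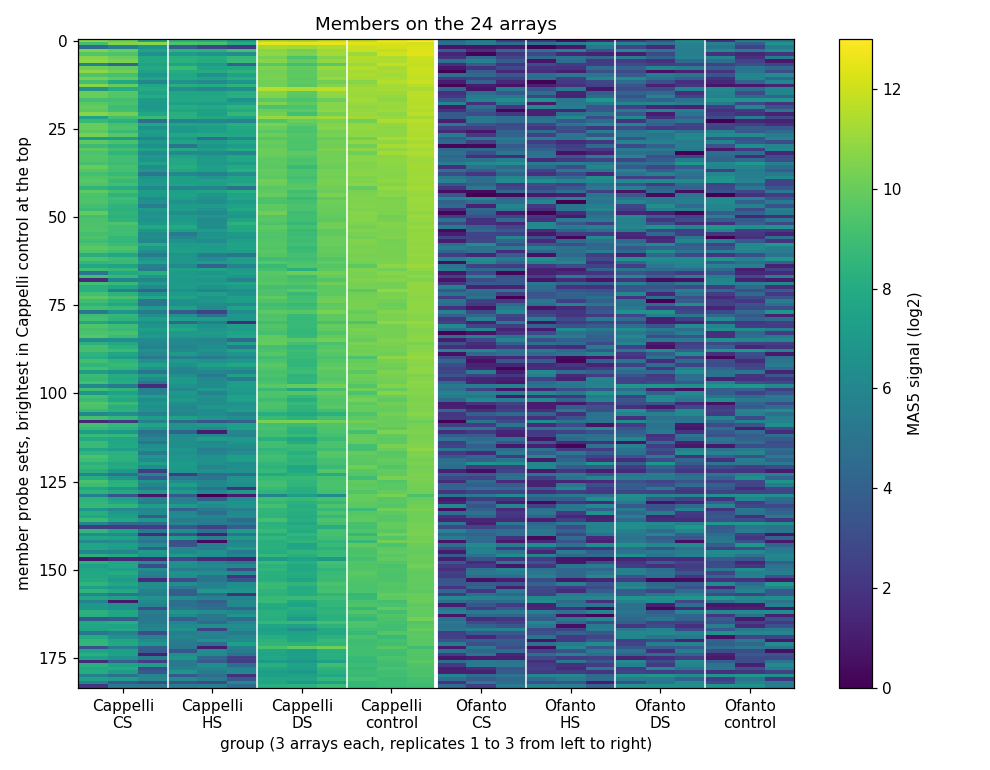
Log2 MAS5 signal of the 184 members (rows, sorted by their mean in Cappelli control) on the 24 arrays (columns, 3 per group). The members are bright in Cappelli control, lower in DS, and lowest in HS, and the third CS array is darker than the other CS arrays; all Ofanto columns are near background.

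Relative to Cappelli control, the median member differed by -2.50 on the log2 scale in CS, -3.60 in HS and -1.12 in DS. The quartiles in DS were close together, at -1.31 and -0.96, and 180 of 184 members had a lower mean in DS than in control. These differences use the control arrays on which the members were chosen and carry no test. At background a fall has no exact size, and 87 members were at or below the 60th percentile on every HS array, against 26 on every CS array and 0 on every DS array.

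The limit on heat ran through a continuous range of falls. Among the Cappelli-only PSs, 83 fell by between 3 and 3.5 log2 units under heat and 58 by between 2.5 and 3. TaAffx.108647.1.S1_at, just inside the limit, differed by -3.0041 between HS and control, and TaAffx.82605.1.S1_at, just outside, by -2.9927. At the Ofanto limit, the brightest Ofanto array of TaAffx.108596.1.S1_at reached 0.974 of its 60th percentile (inside) and that of TaAffx.108394.2.S1_s_at reached 1.001 (outside). At the limit in control, the dimmest Cappelli array of TaAffx.108380.1.S1_at was at 1.001 of its 75th percentile (inside) and that of TaAffx.26440.1.S1_at at 0.9957 (outside).

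Few of the members have a name. The platform annotation used here gives a gene to 1273 PSs and to 0 of the members. Best Arabidopsis matches were taken from the study's tables, whose copies are partial and list PSs that the study had picked on these same arrays. They hold 19 members, of which 7 have a match (36.8%), against 2500 of 3155 listed PSs in all (79.2%). Of the other Cappelli-only PSs they hold 27, of which 6 have a match, so few matches are not particular to the members. Of the 7, 5 match proteins of the small ribosomal subunit, the part of the ribosome that reads the messenger RNA: S2, S11, S20 and, with a pair of PSs, S26. The others match histone H2A, a core protein of the nucleosome, and plantacyanin, a small copper protein of the plant cell wall. Of 13 lists made from annotation words, 11 held no member. Only the 7 members with a match could enter a list, and the seed storage list held no PS at all. The empty lists thus say nothing about the members without a match. The list of RNA processing and translation held 5, the ribosomal PSs, and the list of photosynthesis held 1, the plantacyanin PS, which entered by the word plastocyanin and is no photosynthesis protein.

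The members came from 175 ID numbers. IDs that start with TaAffx made up 75.5% of the members, against 34.4% of the PSs that passed the filter on low values and 48.5% of all PSs examined. Grouped by their number with its last 3 digits left off, 7 blocks with 9 or more members each held 135 of the 184 (73.4%). The same blocks held 64 of the 146 other Cappelli-only PSs (43.8%) and 6.73% of the PSs that passed the filter. The fullest was the block TaAffx.108, with 51 members among 619 PSs on the array (8.24%), followed by TaAffx.81 with 22 of 536 and TaAffx.26 with 17 of 392. The blocks were chosen after the members had been seen, so these shares are a description. The sources used here do not say from which tissue, library or organism each probe sequence was taken, and the origin of these transcripts was not tested. By ID ending, 155 members had the plain form, 16 ended in _s_at, 9 in _x_at and 4 in _a_at. PSs of the last 3 kinds hold probes shared by several transcripts, so their signal may come from more than 1.

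Combined stress against drought is the comparison of Cappelli groups that the choice of members did not use. It sets drought with heat beside drought alone at the same soil water content. The study reports a much lower relative water content of Cappelli leaves in CS than in DS, so these groups differed in more than temperature. Every one of the 184 members had a lower mean in CS than in DS. The median difference was -1.35 on the log2 scale, which is 2.55-fold, and it ranged from -7.19 to -0.13. Over the 28070 PSs that passed the filter the median was -0.05 and 52.9% were lower in CS. Over the other Cappelli-only PSs it was -0.49, and 107 of 146 were lower. All 184 members passed the filter, which asked for a signal over the 60th percentile on all 3 arrays of some group, and by the rule they did so through Cappelli control.

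**Figure D2:**
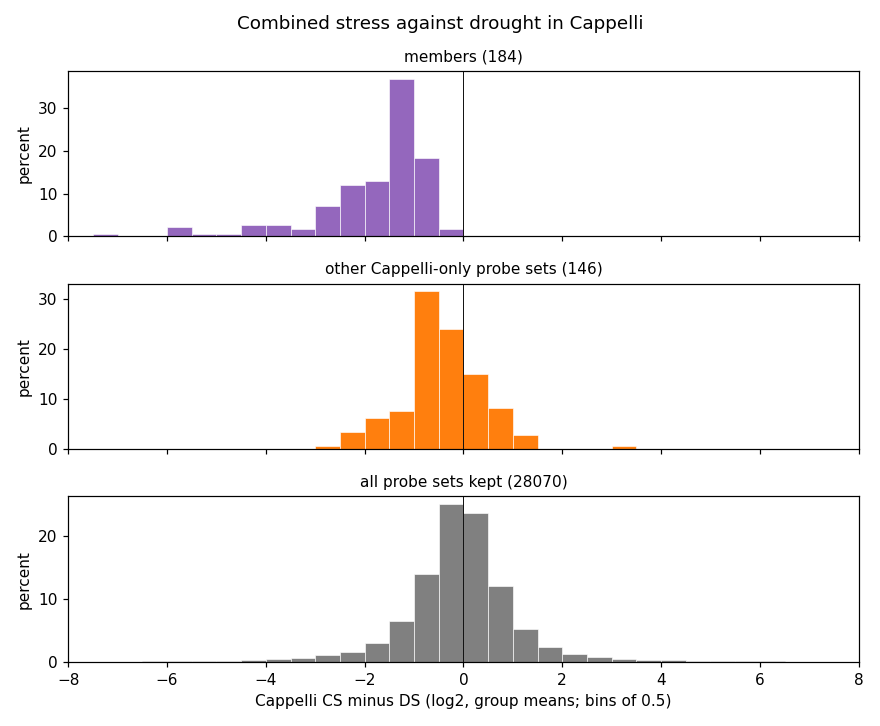
Distribution of the Cappelli CS minus DS difference (log2, group means) in bins of 0.5, as a percent of each set: members, other Cappelli-only PSs and all PSs that passed the filter. The members lie wholly below 0 with a median of -1.35, while the bulk of all PSs is centred at -0.05.

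The shared direction was wider than the calls. A PS was called by limma where its Benjamini-Hochberg adjusted p was below 0.01 and it differed 2-fold or more. On these terms 27 of 184 members were lower in CS than in DS (14.7%) and 0 were higher. The count was 54 with log2 of signal plus 16 and 0 with the methods' t-test, where 29 had an unadjusted p under 0.05. Over all PSs tested, 9.4% were called lower, and among the other Cappelli-only PSs 6 of 146 (4.11%). At an unadjusted p under 0.05 there were 61 members. In 82 members (44.6%) every CS array lay below every DS array, which held for 27.5% of all PSs tested. The median standard error of the difference was 0.90 over the members and 0.24 over all PSs tested. It uses the spread in all 8 groups, and by the rule the members were near background on every Ofanto array. Their median standard deviation was 1.11 to 1.26 in the Ofanto groups, 1.31 in Cappelli CS and 0.46 in Cappelli DS. Over all PSs it was 0.32 in Cappelli CS and 0.18 in Cappelli DS. The standard error is thus not a measure of the CS and DS arrays alone.

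On 1 CS array the members stood apart from the rest of the group. Relative to the mean of the group, the median member was 1.00 higher on CS replicate 1, 0.48 higher on CS replicate 2, and lower on CS replicate 3, at -1.41. Over all PSs that passed the filter the corresponding medians were -0.02, 0.01 and 0.06. CS replicate 3 gave the lowest of the 3 CS values in 164 of 184 members, against 33.9% of all PSs. Above the 60th percentile were 153 members on CS replicate 1, 150 on replicate 2 and 50 on replicate 3, a number inside the 50 to 77 of the HS arrays.

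Against the DS mean, the median member thus stood at -0.36 on CS replicate 1, at -0.95 on replicate 2 and at -2.81 on replicate 3. The number of members below their DS mean was 148 on replicate 1, 180 on replicate 2 and 184 on replicate 3. Without CS replicate 3 the median difference was -0.66, and 168 of 184 members were still lower in CS. The called members numbered 23 without that array, and all 23 were among the 27. Without CS replicate 1 the median difference was -1.89. The size of the difference therefore depended on which CS libraries were used, while the direction in most members and most of the calls did not turn on replicate 3.

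Smaller common shifts separated the arrays of the other groups. In DS the median member was 0.03 above its group mean on replicate 1, at -0.44 on replicate 2 and 0.41 above on replicate 3, with 112, 12 and 178 members above the mean on those arrays. In control the corresponding medians were -0.20, -0.11 and 0.34. In HS they were 0.09, -0.24 and 0.24. Over all PSs that passed the filter no Cappelli array departed from its group mean by more than 0.06 in the median. The arrays did differ in spread over these PSs. The quartiles were -0.28 and 0.24 on CS replicate 1, -0.12 and 0.16 on replicate 2, and -0.21 and 0.30 on replicate 3. On HS replicate 3 they were -0.26 and 0.23. Array weights, lower where an array varies more from its group, were 0.276, 4.49 and 0.289 on CS replicates 1 to 3. In HS they were 0.958, 2.34 and 0.212.

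**Figure D3:**
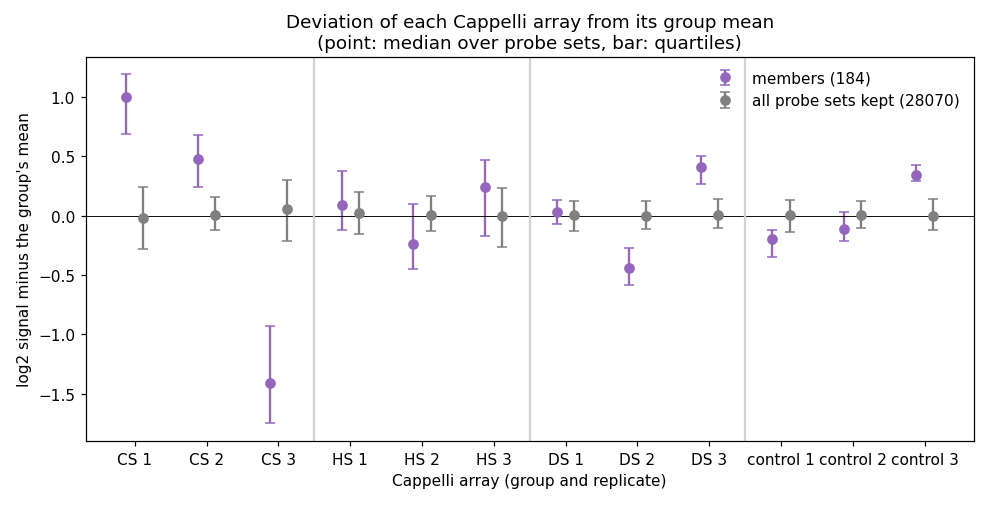
Deviation of each Cappelli array from the mean of its group (log2), as the median (points) and quartiles (bars) over the 184 members and over the 28070 PSs that passed the filter. The members move together from array to array, most in CS, where replicate 3 stands at -1.41, while the median over all PSs stays near 0.

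The members moved with one another across replicates. In CS, 151 of 184 were highest on replicate 1 and lowest on replicate 3 (82.1%), which held for 25.3% of all PSs tested. For the 26 members at background on every CS array this order carries no meaning. In DS, 155 were highest on replicate 3 and lowest on replicate 2 (84.2%), against 15.8% of all PSs. Both orders together were found in 136 members (73.9%), in 85 of the 146 other Cappelli-only PSs (58.2%) and in 5.19% of all PSs. The orders were noticed in the data and the points share their arrays, so the shares are a description. Beside these shifts, the poly-A spike-in controls averaged 11.80, 11.54 and 10.95 in log2 signal on CS replicates 1, 2 and 3, against 10.48, 10.77 and 10.59 on the DS replicates. The 3′ minus 5′ log2 difference of the control genes for ubiquitin, sucrose synthase and glucose-6-phosphate dehydrogenase, a check of RNA quality, averaged 1.80, 1.94 and 1.77 on the CS replicates, and 2.02, 1.99 and 1.87 on the DS replicates. CS replicate 3 did not stand apart from its group in the RNA check and was the lowest of its group in the spike-ins. The part of either in the members' shifts was not tested.

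Split by these orders, the members made 2 sets with different medians. The 136 members with both orders had a narrow spread of differences: the median CS minus DS difference was -1.24, with quartiles of -1.60 and -0.99, and 1 of them was called lower in CS. Of these, 111 (81.6%) came from the 7 ID blocks, and 3 were at background on every CS array. The other 48 members differed more between CS and DS, with a median of -2.71 and quartiles of -3.87 and -2.08, and they held 26 of the 27 called members. Of these 48, 24 (50.0%) came from the 7 blocks, and 23 were at background on every CS array. The sets overlapped, with differences from -3.35 to -0.34 in the 136 and from -7.19 to -0.13 in the 48, of which 33 lacked the CS order. The split used the CS and DS arrays themselves, so the numbers describe it and do not test it.

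**Figure D4:**
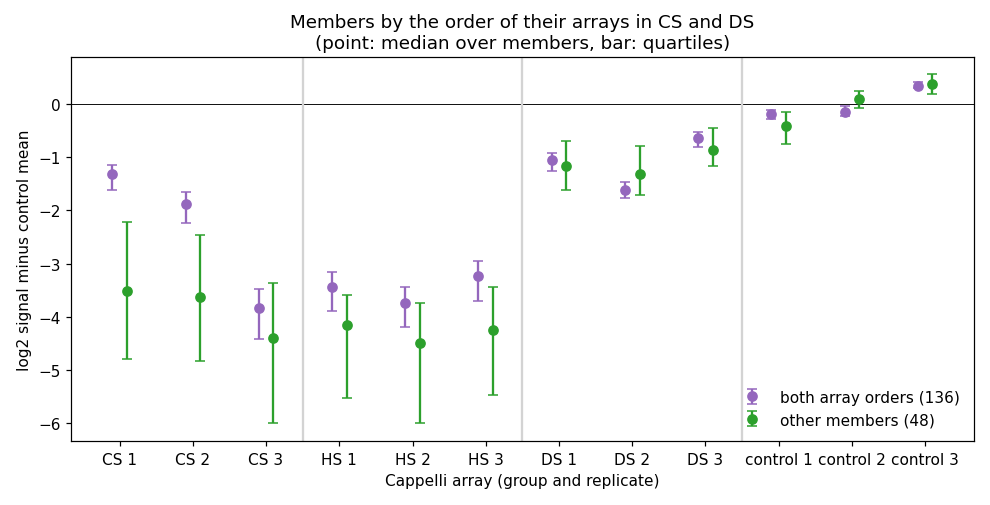
Log2 signal relative to the Cappelli control mean on the 12 Cappelli arrays, as the median (points) and quartiles (bars) over the 136 members with both array orders and over the other 48. The median of the 136 is nearer to control on CS replicates 1 and 2 than on CS replicate 3 or in HS, whereas that of the 48 is low on all CS and HS arrays.

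The members that match ribosomal proteins were among the 136 with both orders. Ta.15100.1.S1_at, which matches S26, had log2 signals of 10.08, 9.56 and 7.51 in CS, 7.71, 7.65 and 8.11 in HS, 10.52, 9.72 and 10.87 in DS, and 11.02, 11.11 and 11.64 in control of Cappelli. In Ofanto its group means lay between 3.31 and 4.88. The HS arrays were all lower than the DS and control arrays, and in CS replicate 3 lay below the HS arrays while replicates 1 and 2 lay near or among the DS arrays.

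The CS minus DS difference of Ta.15100.1.S1_at was -1.32 ± 0.96 (SE; limma adjusted p = 0.29). Its companion from the same sequence, Ta.15100.1.S1_s_at, differed by -1.41 ± 0.62 (adjusted p = 0.0762). Ta.14988.1.S1_at, which matches S11, had 10.06, 9.51 and 8.01 in CS, 7.76, 7.76 and 8.16 in HS, 10.47, 9.68 and 10.74 in DS, and 11.05, 10.94 and 11.70 in control, so that its lowest CS array lay within the range of HS. Its difference was -1.11 ± 0.90 (adjusted p = 0.346).

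Ta.14846.1.S1_at, which matches S2, differed by -1.11 ± 0.70 (adjusted p = 0.217), and Ta.14970.1.S1_at, which matches S20, by -0.45 ± 0.87 (adjusted p = 0.705). For the S20 match, CS gave 9.16, 8.61 and 7.13 and DS gave 8.80, 8.35 and 9.11, so that the groups overlapped, and without CS replicate 3 the difference was 0.13. None of the 5 ribosomal members passed the test. In the list of RNA processing and translation as a whole, 28 of 135 PSs were called higher and 12 lower in CS than in DS, with a median of 0.36. That list holds only PSs that the study had picked on these arrays, so nothing is read from its balance.

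The histone H2A match, Ta.14984.1.A1_at, had log2 signals of 8.22, 7.78 and 5.39 in CS, 6.75, 5.51 and 5.06 in HS, 9.50, 9.10 and 9.84 in DS and 10.34, 10.32 and 10.94 in control. All CS arrays lay below all DS arrays, yet the difference of -2.35 ± 0.97 did not pass (adjusted p = 0.059). The brightest member, Ta.22668.1.S1_a_at, had 10.67, 10.10 and 7.39 in CS, 8.45, 8.24 and 7.34 in HS, 11.50, 11.33 and 11.85 in DS and 11.81, 12.68 and 13.01 in control. Its difference was -2.17 ± 1.07 (adjusted p = 0.113), and that of Ta.22668.2.S1_x_at, of the same number and also among the 5 brightest, was -2.32 ± 0.90 (adjusted p = 0.0456). Again the third CS array was the low one in both. TaAffx.108685.1.S1_at, bright as well, differed by -1.30 ± 0.72 (adjusted p = 0.157).

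At the upper end of the CS minus DS differences, 5 members were close to 0: TaAffx.54100.1.S1_at at -0.13, Ta.27063.1.S1_at at -0.34, Ta.14970.1.S1_at at -0.45, TaAffx.81703.1.S1_at at -0.56 and TaAffx.108236.1.S1_at at -0.57, with standard errors between 0.87 and 1.09 and no call. TaAffx.81703.1.S1_at had 10.65, 10.03 and 7.89 in CS against 10.35, 9.35 and 10.55 in DS. On 1 CS array it was brighter than on every DS array, and on another it was dimmer than on all of them. Without CS replicate 3, 4 of these 5 were higher in CS than in DS (differences of 0.13 to 0.53), none of them past the test, and TaAffx.108236.1.S1_at was at -0.34.

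The members called lower in CS showed another picture. Plantacyanin is known in Arabidopsis for its place in the cell wall of the pistil. Its match, Ta.1725.3.S1_at, had 5.93, 4.87 and 5.85 in CS, 2.33, 4.65 and 4.62 in HS, 7.94, 8.26 and 8.03 in DS, and 9.53, 9.82 and 10.43 in control of Cappelli. No CS array stood apart, and all lay below all DS arrays. The difference was -2.52 ± 0.54 (adjusted p = 0.00103), and since all CS values were at background it is at least 2.19-fold when CS is set to the 60th percentile.

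The 5 lowest CS minus DS differences, as measured, were in members with no match, and since their CS signals were at background the order among them has no exact meaning. TaAffx.28399.1.S1_at had log2 signals of 1.52, 2.06 and 5.70 in CS, 4.49, 3.39 and 4.05 in HS, 10.35, 10.38 and 10.11 in DS and 10.18, 9.99 and 10.07 in control. Drought and control overlapped, and both heat groups were at background. The difference of -7.19 ± 1.00 (adjusted p = 1.42e-05) is a fall of at least 10.1-fold against the 60th percentile. TaAffx.95122.1.S1_at had 2.25, 2.32 and 2.34 in CS, 3.54, 2.56 and 3.86 in HS, 8.41, 8.19 and 8.09 in DS, and 9.24, 9.86 and 10.30 in control, so its CS and HS arrays were all at background and below its DS and control arrays. Its difference was -5.93 ± 0.52 (adjusted p = 6.76e-08, at least 2.44-fold).

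Ta.21650.1.A1_at, the member with the largest fall in heat, had 4.57, 5.64 and 6.75 in CS, 3.96, 2.71 and 2.21 in HS, 11.24, 11.10 and 11.40 in DS and 11.90, 12.14 and 12.31 in control. Its CS minus DS difference was -5.59 ± 1.08 (adjusted p = 0.000411, at least 19.8-fold), with all CS arrays at background. Ta.21051.1.S1_at differed by -5.89 ± 0.61 (adjusted p = 4.69e-07), but its DS signals of 7.01, 7.56 and 7.07 were themselves close to background, so the fall is at least 1.21-fold. Ta.27345.1.S1_at differed by -5.53 ± 0.71 (adjusted p = 5.85e-06, at least 7.95-fold), a call that was lost when only the CS and DS arrays of Cappelli were fitted (limma adjusted p = 0.0155).

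Ta.611.2.S1_at, second in brightness, had 9.06, 10.56 and 10.67 in CS, 9.30, 9.22 and 8.06 in HS, 12.57, 12.51 and 12.55 in DS and 12.42, 12.28 and 12.11 in control. It was above background on every Cappelli array, its DS arrays were all brighter than its control arrays, and CS replicate 1 was the low one. The fall in CS was 5.46-fold against DS (-2.45 ± 0.56, adjusted p = 0.00175). Without CS replicate 1 it was -1.93 and no longer passed (adjusted p = 0.015), nor did it pass when only the CS and DS arrays of Cappelli were fitted (limma adjusted p = 0.0108).

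It was 1 of 4 members whose mean in DS was not lower than in control, singled out after their values had been seen. The others were Ta.18930.1.A1_at, TaAffx.28399.1.S1_at and Ta.27503.1.A1_at, with DS minus control differences between 0.20 and 0.46. All 4 were among the 27 called members, at CS minus DS differences of -2.45, -4.00, -7.19 and -5.49. Of the 27, 5 had the CS order shared by most members, 25 were above the 60th percentile on all 3 DS arrays, and 19 were at background on every CS array. In all 27 every CS array lay below every DS array.

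**Figure D5:**
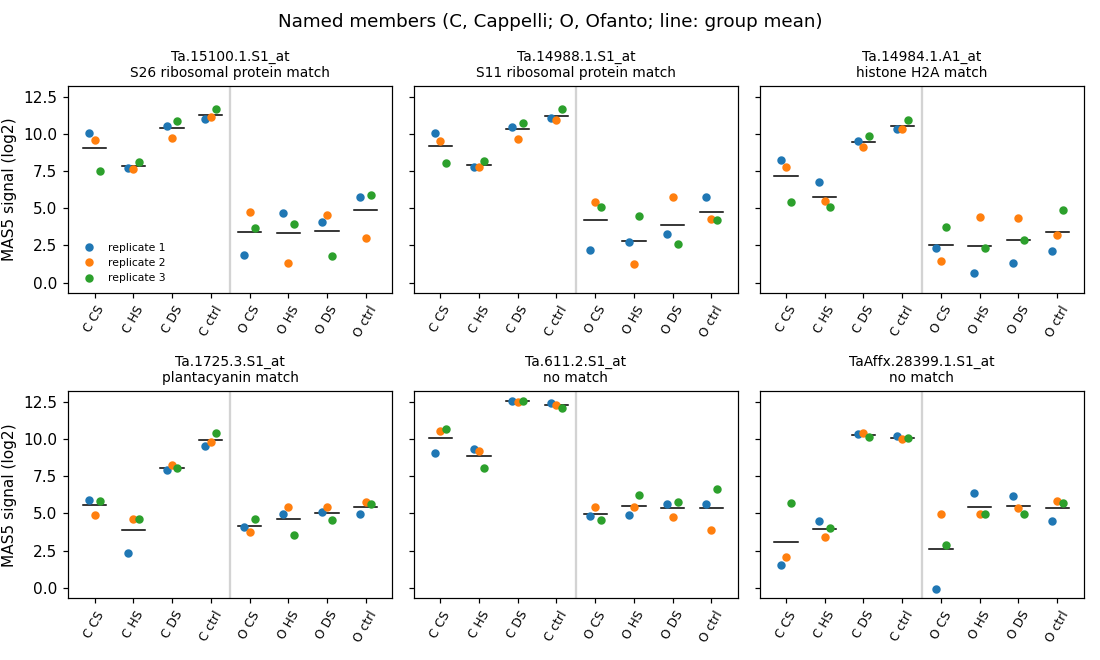
Log2 MAS5 signal of 6 members on each array (points, coloured by replicate) with the group means (lines), for Cappelli (C) and Ofanto (O). In CS the ribosomal and histone matches are lowest on the third array, whereas the plantacyanin match and TaAffx.28399.1.S1_at are low on all CS arrays and Ta.611.2.S1_at is lowest on the first.

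Detection was counted in the groups that the rule did not use. In CS, 46 of 184 members were above the 60th percentile on all 3 arrays, and in DS 179 were (97.3%). Among all PSs that passed the filter the shares were 75.7% in CS and 78.9% in DS, and among the other Cappelli-only PSs 69.2% in CS and 98.6% in DS. Without CS replicate 3 the count of members in CS was 147. At the 75th percentile, 1 member was above on all CS arrays and 106 were on all DS arrays.

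PSs that share an ID number with a member but are no members, called sisters here, were looked at in Ofanto. Whether a sister reports the same transcript as its member was not tested. There were 46 sisters of 37 members, and 17 passed the filter. Of the 46, 17 were above the 60th percentile on all 3 Cappelli control arrays and 3 on all 3 Ofanto control arrays, and 37 were below it on all 12 Ofanto arrays. Under heat in Ofanto, 1 of the 17 tested was called lower than in control and 0 higher, against 7.46% of all PSs called lower, with 2 at an unadjusted p under 0.05. The median difference of the 17 was -0.52, against 0.02 over all PSs, but 13 of them were at background on every Ofanto control array which leaves little room for a fall.

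The called sister was TaAffx.28047.1.S1_at, of the same number as the member TaAffx.28047.3.A1_at. In Ofanto it had log2 signals of 4.58, 2.11 and 0.79 in HS and of 7.68, 7.21 and 8.12 in control, and in DS it had 8.11, 8.22 and 8.57. The HS arrays were all at background, and the control and DS arrays were above the 60th percentile. The HS minus control difference was -5.18 ± 0.58 (limma adjusted p = 1.15e-06), which is at least 1.56-fold when HS is set to the 60th percentile. In Cappelli it had 5.97, 5.49 and 5.55 in HS, and 11.25, 11.65 and 11.86 in control, the same direction from a brighter control. Another tested sister of that number, TaAffx.28047.1.S1_s_at, was at background on every Ofanto array. Its HS minus control difference in Ofanto was -0.80 ± 0.55 (limma adjusted p = 0.251).

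In Cappelli, 13 of the 17 tested sisters were called lower in HS than in control, where 13.6% of all PSs were. This is the contrast on which the members were chosen, and sisters can report the same transcripts, so nothing is read from the count. In CS against DS, which the choice did not use, all 17 were lower in CS, with a median of -1.80. Of the 17, 8 were called lower. Over all PSs tested the median was -0.05, 52.9% were lower and 9.4% were called lower. All 17 passed the filter in Cappelli control, where every array was above background for each of them. Since they also share ID numbers with members and can report the same transcripts, their CS and DS values are no independent check of the members. Ta.611.1.A1_at, the sister of the bright Ta.611.2.S1_at, had 10.12, 11.48 and 11.73 in CS against 13.35, 13.31 and 13.40 in DS, a difference of -2.24 ± 0.60 (adjusted p = 0.00538), with CS replicate 1 again the lowest. Ta.1725.1.S1_at, another match to plantacyanin, had 3.25, 6.35 and 6.98 in CS against 8.02, 8.53 and 8.59 in DS, a difference of -2.85 ± 0.78 (adjusted p = 0.00655). In both, the sister and the member showed the same groups high and low. Ta.22668.3.S1_x_at, a sister of the brightest member, had 7.65, 7.50 and 5.02 in CS against 8.03, 8.17 and 8.56 in DS. It was not called (-1.53 ± 0.92, limma adjusted p = 0.194). TaAffx.95122.2.S1_at, the sister of TaAffx.95122.1.S1_at, differed by -2.57 ± 0.58 (limma adjusted p = 0.00165). In Ofanto it was above the 60th percentile in DS, with 8.37, 8.40 and 7.81.

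Lists of other genes were counted in the CS against DS contrast in Cappelli, with all PSs taken from the study's own partial tables, picked there on these arrays. The tables include clusters that the study describes as up-regulated, with raised expression in HS and CS of Cappelli. Of 105 heat shock PSs, 72 were called higher and 1 lower in CS than in DS. Of 18 PSs for defence and pathogenesis-related proteins, 10 were higher and 4 lower. Of 20 photosynthesis PSs, 8 were higher and 7 lower. The calls higher and lower were 37 and 20 of 108 kinases, 43 and 14 of 129 transcription factors, 21 and 16 of 60 transport proteins, and 42 and 13 of 139 PSs for proteolysis and ubiquitin. They were 22 and 5 of 51 cell wall proteins and 33 and 9 of 79 redox enzymes. For pollen and anther they were 0 and 1 of 3, and for root 1 and 0 of 2. In each of these lists but pollen and anther the calls higher in CS outnumbered those lower. The way the PSs were picked favours calls higher in CS, so nothing is read from that balance. Over all 28070 PSs tested 2198 were called higher and 2638 lower, and among the members 0 were called higher and 27 lower.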

How the data were processed

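The authors' deposited values are MAS5 intensity values on a linear scale, 1 for each of 61290 PSs on 24 arrays, per the submitters' processing notes, which name no version of the software. The study's methods name RMA for its own expression analysis, so low signals in particular can differ from those it used. Of the PSs, 111 array controls and 1 further PS were left out of ranks and tests, and all columns were used. Values were taken to log2 with no offset, and 28070 PSs (45.9%) passed the filter on low values. limma 3.58.1 in R 4.3.3 fitted the means of the 8 groups over all arrays (16 residual and 1.97 prior degrees of freedom), and p-values were adjusted (Benjamini-Hochberg) over all PSs kept. The other steps used Python with pandas and numpy. The fit was tested on simulated data.

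Members and lists were chosen with earlier results of these data known. PSs named in the text are members with a match, the 5 brightest in Cappelli control, the 5 lowest and 5 highest CS minus DS differences, those at each limit, and the tested sisters of these members. Also named, chosen after their values were seen, are Ta.18930.1.A1_at and Ta.27503.1.A1_at, for their DS signal, and TaAffx.28047.3.A1_at with TaAffx.28047.1.S1_at, the sister called in Ofanto. TaAffx.28047.1.S1_s_at, a tested sister of the same number, is named beside them. The number of arrays limits the precision. No probe sequence is printed, since none was in the sources used here. Alternatives were array scaling, an offset, the filter, the test, array weights (estimated gene by gene), a block by replicate number, other limits of the rule and leaving out each array. Chosen after seeing the data were percentiles over every row of the table, the alternatives for the Cappelli count of sisters, and the count of array orders without 4 members.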

Additional observations from a re-analysis of the deposited data

How the results depend on the processing

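The number of members called lower in CS than in DS was 27. It was 54 with log2 of signal plus 16 and 0 with the methods' t-test (Welch) after Benjamini-Hochberg adjustment, where 29 had an unadjusted p under 0.05, and the cause was not tested. In the other settings with all arrays it lay between 20 and 31, and between 18 and 24 when an array was left out. The median difference lay between -1.89 and -0.66 when an array was left out, the last without CS replicate 3. With the replicate number as a block, 26 members were called. The numbers do not pair the arrays: same-numbered CS and DS arrays deviated together with r of 0.0402, -0.0254 and -0.0866 across PSs.

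The count of sisters called in Ofanto was 1 in all settings but the methods' t-test, which gave 0, and 1 when any array was left out. Without Ofanto control replicates 2 and 3 it was also 1. The Cappelli count of 13 became 8 of 10 tested with the filter at the 75th percentile and 7 with the methods' t-test. The rule gave 62 members with a fall of at least 4, between 142 and 272 under the other settings, and between 166 and 218 when an array was left out. Percentiles over every row of the table gave 183, of which 182 were among the 184. Members detected on all CS arrays numbered 46, against 99 above the 50th and 1 above the 75th percentile, and 46 to 147 when an array was left out. In DS they numbered 179, 106 above the 75th percentile, and 179 to 183 when an array was left out.

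Among single members, the CS minus DS difference turned positive with array weights for Ta.27063.1.S1_at (0.27) and TaAffx.54100.1.S1_at (0.52). The calls of Ta.27345.1.S1_at, Ta.611.2.S1_at and TaAffx.108596.1.S1_at were lost when only the groups compared were fitted (limma adjusted p = 0.0155, 0.0108 and 0.0138). Leaving out an array gave ranges of -0.89 to 0.13 for Ta.14970.1.S1_at, -0.89 to 0.53 for Ta.27063.1.S1_at, -0.52 to 0.44 for TaAffx.54100.1.S1_at, -1.12 to 0.26 for TaAffx.81703.1.S1_at and -2.46 to 0.06 for TaAffx.108380.1.S1_at. Signals near background and 3 arrays in a group limit what can be said of single members.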
